A study of Mus musculus with 6 samples.

Results

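Ifit1, Ifit2 and Ifit3 encode interferon-induced proteins with tetratricopeptide repeats, and the transcripts of these genes were measured here in mouse liver. Their probes were found through the RefSeq accession that the array's annotation gives each probe, which led to 3 probes, 1 for each gene, among 55681 probes and 37074 genes. All 3 genes passed the filter on dim probes and were among the 22346 genes tested. The study concerned human NPC1L1 in the liver, a sterol transporter that human liver makes and mouse liver largely lacks, and fatty liver disease, and its arrays compared liver gene expression at baseline, without a high-fat diet. L1-Tg mice carry human NPC1L1 under the APOE promoter, which drives it in hepatocytes, and were hemizygous, and their WT littermates lack the transgene. Both groups were male, came from a line backcrossed for at least 8 generations to C57BL/6J, were 6 to 12 weeks old per the study's methods, and received the control-fat diet, uninfected. Each of the 6 arrays, 3 per group, held liver RNA pooled from 2 or 3 mice, and these pools are the replicates. All L1-Tg mice come from 1 transgenic line, so the transgene and its insertion site cannot be told apart.

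IFIT proteins are built from tetratricopeptide repeats and are made in large amounts after type I or type III interferon binds its receptor and a complex of STAT and IRF transcription factors reaches an interferon-stimulated response element. IFIT1 binds the 5′ end of RNA that lacks the methyl mark of host messenger RNA and blocks its translation, IFIT3 joins IFIT complexes and steadies them, and IFIT2 binds RNA and also restrains some viruses in tissue. In uninfected liver these genes are usually kept low.

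The promoters of Ifit1, Ifit3 and Ifit3b are shown for the response element named above. Those of Ifit2 held no match and are not printed. In the RefSeq sequences of build GRCm38.p6, windows of 250 bases before to 50 bases after each start listed for a gene were searched on both strands. The search was for the core of the interferon-stimulated response element, taken as GAAA, any 2 bases and GAAA again. It reads TTTC, any 2 bases and TTTC on the other strand. The listed start is the first base of the gene's span for Ifit1. For Ifit2, Ifit3 and Ifit3b the listed starts lie inside the span, and distances below are counted from them. The stretches printed for Ifit3 and Ifit3b fall within the spans of these genes. The 250 bases before the start are printed 5′ to 3′ on the gene's own strand, with each match in capitals. All 3 lie on the plus strand, at chr19:34640639-34640888 for Ifit1, chr19:34583279-34583528 for Ifit3 and chr19:34607707-34607956 for its close relative Ifit3b.
Ifit1: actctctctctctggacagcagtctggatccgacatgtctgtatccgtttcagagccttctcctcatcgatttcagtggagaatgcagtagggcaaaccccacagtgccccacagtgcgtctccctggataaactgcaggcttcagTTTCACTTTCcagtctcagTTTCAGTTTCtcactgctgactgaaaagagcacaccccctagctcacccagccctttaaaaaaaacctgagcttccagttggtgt
Ifit3: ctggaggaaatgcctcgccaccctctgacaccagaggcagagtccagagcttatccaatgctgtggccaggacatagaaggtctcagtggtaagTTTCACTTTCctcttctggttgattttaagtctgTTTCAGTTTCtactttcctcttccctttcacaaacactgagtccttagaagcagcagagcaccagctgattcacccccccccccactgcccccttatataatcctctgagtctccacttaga
Ifit3b: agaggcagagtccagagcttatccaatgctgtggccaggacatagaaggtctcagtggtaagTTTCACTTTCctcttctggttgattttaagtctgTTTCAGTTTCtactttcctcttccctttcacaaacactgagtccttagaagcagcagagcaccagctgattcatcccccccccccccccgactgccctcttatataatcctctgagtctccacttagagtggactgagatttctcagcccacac
Ifit1 and Ifit3 each held 2 matches with the same letters, TTTCACTTTC farther from the start and TTTCAGTTTC nearer to it. They lay 104 to 95 and 85 to 76 bases before the start of Ifit1, and 156 to 147 and 122 to 113 bases before that of Ifit3. The windows of Ifit3 and Ifit3b were identical at 259 of 260 aligned bases, or 99.6% with gaps not counted. Neither of the 2 windows listed for Ifit2 held a match, which says only that these letters are not in those windows. Over all promoters 1131 of 32851 windows, or 3.44%, held a match. A match is a description of sequence, and no binding was measured.

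The livers carried their defining hepatocyte transcripts, with all 10 hepatocyte markers detected and a summed level of 4697 to 5896 times the array's 75th percentile in L1-Tg pools and 5285 to 5731 in WT pools. The mouse Npc1l1 probe was well above background on 1 of 3 L1-Tg and 2 of 3 WT arrays and reads the mouse transcript, so it does not check the human transgene. All arrays sat on 1 slide, WT in row 1 and L1-Tg in row 2, so genotype and slide row cannot be told apart. In both rows replicates 1, 2 and 3 sat in columns 1, 2 and 3, so pool and slide column cannot be told apart within a group. Between 53.1% and 59.2% of spots were well above background on an array, and no spot was saturated.

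Ifit1 was higher in every L1-Tg pool. Its processed signal, a background-subtracted intensity, was 1132, 878 and 1339 in the L1-Tg pools and 156, 327 and 356 in the WT pools. After log2 transformation and subtraction of the array's 75th percentile, the log2 signal was 1.58, 1.57 and 1.99 in L1-Tg pools and -1.01, 0.06 and 0.07 in WT pools. The probe was well above background on all 6 arrays, as were those of Ifit2 and Ifit3. The lowest L1-Tg pool stood 1.50 log2 units above the highest WT pool, and WT replicate 1 was the lowest of all. The log2 difference, L1-Tg minus WT, was 2.01 (SE 0.32, n = 3 pools per group), which is 4.02-fold with a 95% interval of 2.37 to 6.82. The limma test across 22346 genes gave a Benjamini-Hochberg adjusted p of 0.180.

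Ifit2 was also higher in every L1-Tg pool. Its processed signal was 215, 133 and 210 in L1-Tg pools and 47.5, 60.2 and 88.0 in WT pools. The log2 signal was -0.81, -1.15 and -0.68 against -2.73, -2.38 and -1.95. The groups did not overlap, with a gap of 0.79 between the lowest L1-Tg and the highest WT pool, and WT replicate 3 was the highest WT pool. The log2 difference was 1.47 (SE 0.23), or 2.78-fold with a 95% interval of 1.90 to 4.05, with a limma adjusted p of 0.180. Normexp background correction with an added offset of 50 was also run in place of the scanner's processed signal. It gave log2 differences of 0.87 for Ifit2 (limma adjusted p = 0.107), 1.76 for Ifit1 and 1.79 for Ifit3. That offset is near the processed signals of Ifit2 in WT pools, 47.5 to 88.0, and its part in the change was not tested.

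Ifit3 was the most variable of the 3 among WT pools. Its processed signal was 3740, 2814 and 4587 in L1-Tg pools and 524, 755 and 2259 in WT pools. The log2 signal was 3.31, 3.25 and 3.77 against 0.73, 1.27 and 2.73. WT replicate 3 lay 1.16 above the WT mean and only 0.51 below the lowest L1-Tg pool, so the groups did not overlap but came close. The log2 difference was 1.86 (SE 0.50), or 3.64-fold with a 95% interval of 1.58 to 8.37, with a limma adjusted p of 0.438.

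**Figure D1:**
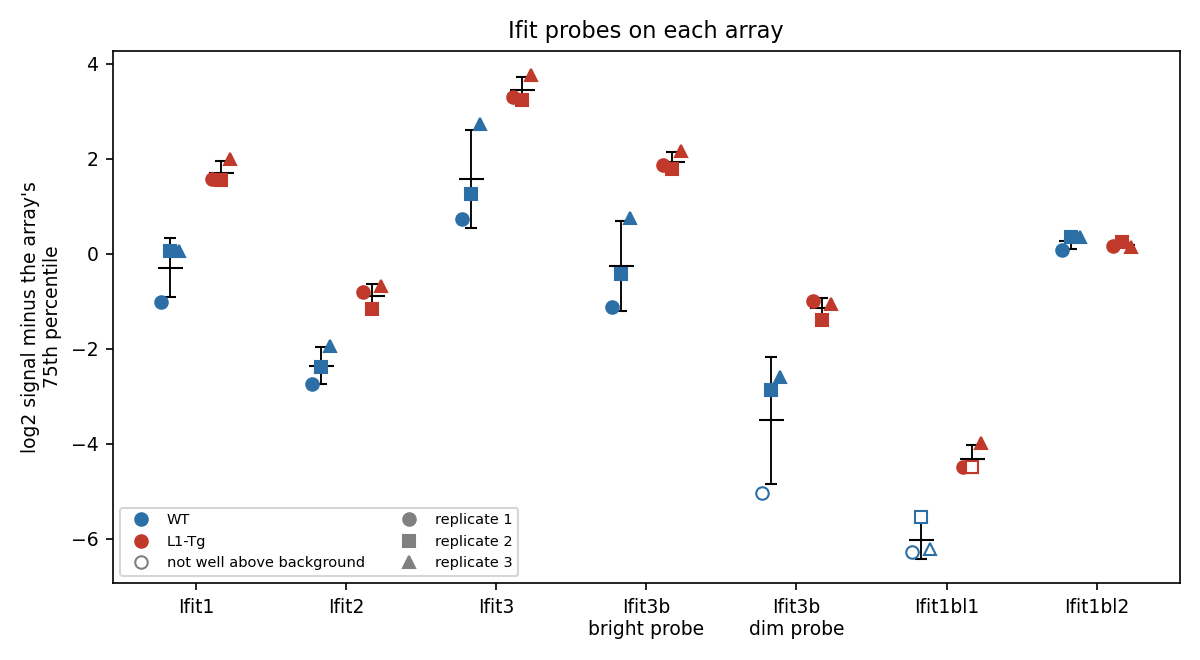
Log2 signal minus the array's 75th percentile (y axis) for each Ifit probe (x axis), WT in blue and L1-Tg in red, with 1 point per array, the symbol giving the replicate number, and a bar for the mean and SD of 3 arrays. For Ifit1, Ifit2 and Ifit3 every L1-Tg point lies above every WT point, by 1.50, 0.79 and 0.51, while the Ifit1bl2 points overlap. Heights are not comparable between probes.

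None of the 3 members passed the adjusted threshold of 0.05, which 29 of the 22346 genes, or 0.13%, did. All 3 had an unadjusted p under 0.05 in the higher direction, against 4.5% of all tested genes in that direction and 4.38% in the lower one. All 3 also had groups that did not overlap in the higher direction, against 7.21% of all tested genes in that direction and 8.71% in the lower one. Another scaling moved these backgrounds. Of the genes with an unadjusted p under 0.05, 50.7% were higher in L1-Tg, and this share was 68.1% after quantile normalization, 68.8% in the authors' normalized intensities and 83.3% after scaling to the array median. A log2 difference at least as large as that of Ifit2 was found for 116 genes, or 0.519%, and Ifit1 was number 52 and Ifit3 number 66 from the top by size of the difference. By the exact permutation test over pools each member gave p = 0.1, two-sided, the smallest that 3 against 3 allows.

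By the difference index that the methods use, the difference of the mean linear intensities divided by the sum of the SDs, Ifit1 reached 2.74, Ifit2 2.41 and Ifit3 1.50. All 3 passed the index threshold of 0.7, as did 8.61% of 37041 genes in the higher direction. They were numbers 118, 177 and 623 from the top of that list. Leaving out 1 pool moved each index by over 1.5 times, to 6.20 for Ifit1 without L1-Tg replicate 3, to 4.24 for Ifit2 without L1-Tg replicate 2 and to 3.20 for Ifit3 without WT replicate 3. For Ifit3 the SD of the linear level in WT pools, 2.69, was close to the WT mean of 3.57.

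The pools, whose replicate numbers are also their slide columns, ranked alike for the 3 genes. WT replicate 1 was the lowest and WT replicate 3 the highest WT pool for each, and L1-Tg replicate 3 was the highest and L1-Tg replicate 2 the lowest L1-Tg pool. Among the 29 other interferon effectors tested, WT replicate 1 was the lowest WT pool for 20 and WT replicate 3 the highest for 18, and L1-Tg replicate 3 was the highest L1-Tg pool for 22. Over all tested genes those shares were 28.3%, 29.9% and 30.3%. The SD among WT pools was 0.62 for Ifit1, 0.39 for Ifit2 and 1.04 for Ifit3 on the log2 scale, against 0.24, 0.24 and 0.28 among L1-Tg pools. The SD was larger among WT pools for 65.4% of all tested genes and 62.1% of the other interferon effectors too. For Ifit3 an SD among WT pools at least this large was found in 1.96% of genes.

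The 3 differences were also set against each other, pool by pool. The log2 difference of Ifit1 exceeded that of Ifit2 by 0.54 (exact permutation p = 0.2, adjusted over 3 pairs 0.6) and that of Ifit3 by 0.15 (exact p = 0.8, adjusted 0.8), and that of Ifit3 exceeded that of Ifit2 by 0.39 (exact p = 0.4, adjusted 0.6). No pair differed at a design that cannot go below 0.1, and this does not show that the 3 moved by the same amount. The Ifit1 to Ifit3 log2 ratio had an SD of 0.05 among L1-Tg pools and 0.74 among WT pools. The excess of Ifit1 over Ifit3 turned to -0.25 when WT replicate 3 was left out and to -0.034 with normexp, and was 0.48 without WT replicate 2. The excess of Ifit3 over Ifit2 was 0.16 without WT replicate 1, 0.25 without WT replicate 2, 0.77 without WT replicate 3 and 0.92 with normexp, and that of Ifit1 over Ifit2 was 0.89 with normexp.

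The remaining genes of the cluster on chromosome 19 gave a contrast among neighbours. In GRCm38.p6 Ifit2 spans chr19:34550550-34576534, Ifit3 chr19:34583119-34588982 and Ifit1 chr19:34640889-34650009, and Ifit3b and Ifit1bl2 lie between Ifit3 and Ifit1. Ifit3b, a close copy of Ifit3, had a log2 signal of 1.87, 1.79 and 2.16 in L1-Tg pools and -1.11, -0.42 and 0.76 in WT pools. These groups did not overlap, and the log2 difference was 2.20 (SE 0.45, limma adjusted p = 0.307). A second, dimmer Ifit3b probe gave 2.36, with 2 of 3 WT arrays well above background. Probe sequences were not used here, so how far Ifit3 and Ifit3b transcripts share a probe was not tested.

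Ifit1bl2 showed no such difference. Its log2 difference was -0.08 (SE 0.11, limma adjusted p = 0.827), and its groups overlapped. One of its RefSeq starts lies 146 bases from that of Ifit1 on the opposite strand, the windows share 245 bases, and the 2 matches printed above for Ifit1 lie in both. Ifit1bl1 was well above background on 2 of 3 L1-Tg and 0 of 3 WT arrays and was not tested. Outside the cluster, the log2 difference was -0.04 for Lipa, the lysosomal acid lipase, 0.25 for Fas, the death receptor, -0.05 for Slc16a12, a monocarboxylate carrier family member, -0.22 for Pank1, a pantothenate kinase, and 0.42 for Kif20b, a kinesin, with limma adjusted p between 0.571 and 0.948. The groups of Fas and of Kif20b did not overlap, in the higher direction, as was so for 7.21% of all tested genes. Those of Lipa, Slc16a12 and Pank1 overlapped. Ch25h, cholesterol 25-hydroxylase, was too dim to test.

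**Figure D2:**
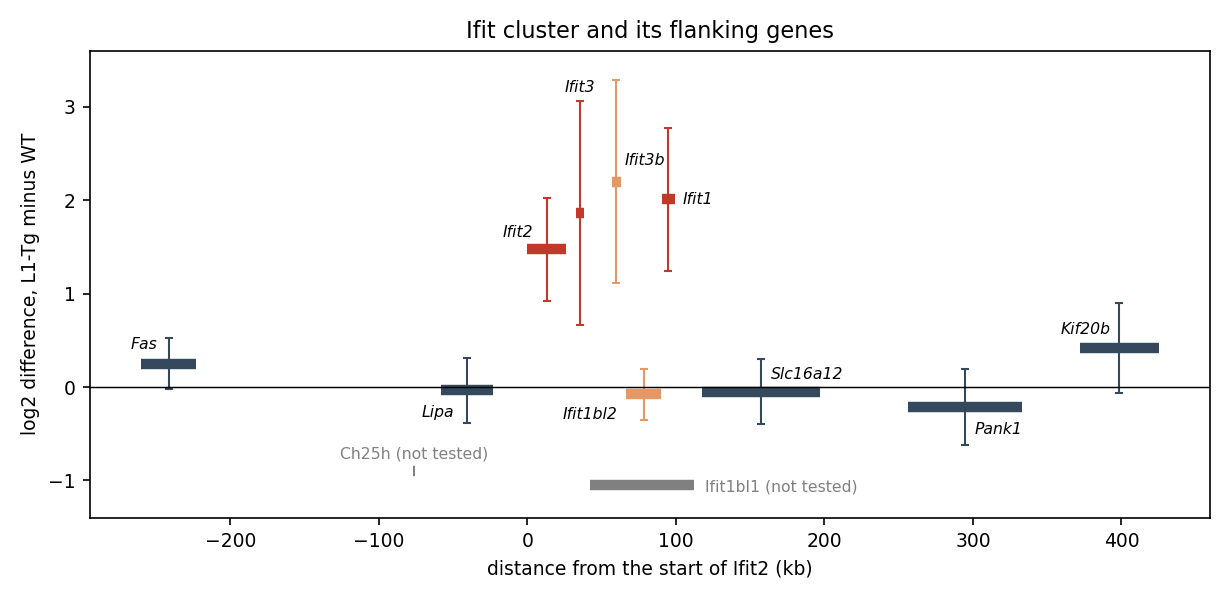
Log2 difference, L1-Tg minus WT (y axis), against distance in kb from the start of Ifit2 (x axis), with horizontal bars for gene spans, vertical bars for 95% limma intervals, members in red, Ifit3b and Ifit1bl2 in orange and flanking genes in dark blue. Ifit2, Ifit3, Ifit3b and Ifit1 stand at 1.47 to 2.20, and Ifit1bl2 between them stands at -0.08, while Ch25h and Ifit1bl1, drawn in grey below the others, have no value.

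The genes whose pattern over the 6 arrays was most like each member's were found by the root mean square distance of centred log2 signals, among 13340 tested genes with a symbol. Nearest to Ifit1 were Fitm1 at 0.08, Rsad2, which encodes viperin, at 0.24, Mirt2 at 0.26, Insl6 at 0.27 and Sult2a7 at 0.29. Nearest to Ifit2 were Trim30a at 0.10, Ifi27 and Usp18 at 0.12, Oas2 at 0.14 and Oasl1 at 0.15. Nearest to Ifit3 were Isg15 at 0.12, Oasl2 at 0.15, Ifit3b at 0.20, Irf7 at 0.22 and Herc6 at 0.29. The members were farther from each other than from these, at 0.35 for Ifit1 and Ifit2, 0.43 for Ifit1 and Ifit3 and 0.44 for Ifit2 and Ifit3.

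Most genes of the list of other interferon effectors were higher in L1-Tg pools, as were Ifit1, Ifit2 and Ifit3. Of 29 other interferon effectors tested, 28 had a positive log2 difference, as did 9575 of all 22346 tested genes. An unadjusted limma p under 0.05 in the higher direction was met by 24, against 4.5% of all tested genes. Groups did not overlap for 25, all higher, against 7.21%, and 0 passed the adjusted threshold. The median log2 difference of the 29 effectors was 1.22, against -0.03 over all tested genes. The values were 2.57 for Ifi44, 2.47 for Oas1a and 2.06 for Oasl2, both of the 2′-5′ oligoadenylate synthetase family, 1.90 for Rsad2 and 1.74 for Isg15, the ubiquitin-like modifier. Ifitm1 stood at -0.16, Ifitm2 at 0.04 and Sp100 at 0.01. The motif was held by the promoters of 12 of 26 effectors with a window, or 46.2%, against 3.99% of all genes. It was also held by those of 11 of 20 interferon ligands with a window, or 55.0%. Not all of these ligands were tested, and the median log2 difference of the 12 ligands tested was 0.05. Promoters of 25.0% of the sensors and adaptors and of the STAT and IRF factors with a window held it too.

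**Figure D3:**
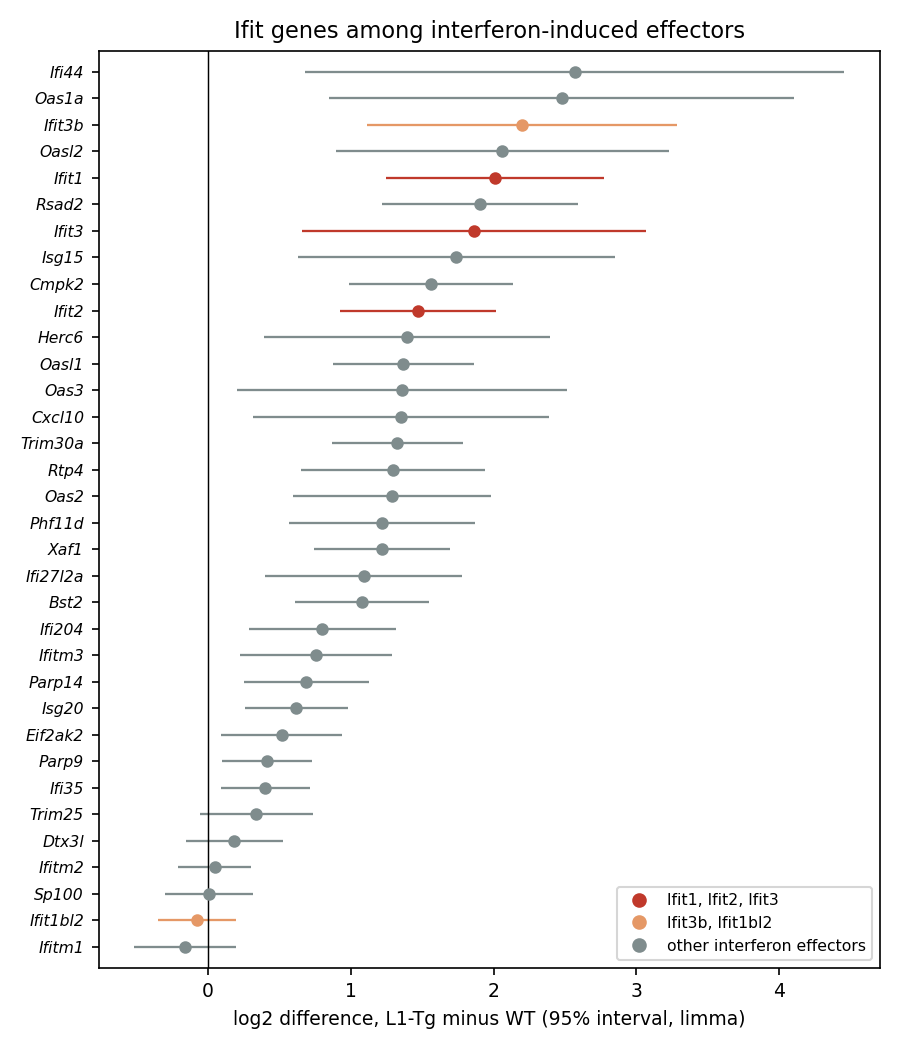
Log2 difference, L1-Tg minus WT (x axis), with 95% limma intervals over 3 arrays per group, for Ifit1, Ifit2 and Ifit3 in red, Ifit3b and Ifit1bl2 in orange and 29 other interferon effectors in grey, sorted by size. The members lie at 1.47, 1.86 and 2.01, inside the range of -0.16 to 2.57 of the other effectors.

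The lists for other steps of the interferon pathway differed in how many transcripts had an unadjusted p under 0.05. Over all tested genes 4.5% had one in the higher and 4.38% in the lower direction. The arrays give no order of events, and whether any difference here preceded or followed those of the Ifit genes was not tested. Of 12 interferon ligands tested, Ifnab stood at 0.29 and Ifna11 at -0.57 with an unadjusted limma p under 0.05, and Ifnb1 was too dim to test. The tested ligands were dim too, with mean log2 signals from -4.43 (Ifng, WT) to -0.59 (Ifnl3, L1-Tg). Ifna11 averaged -4.38 in L1-Tg and -3.80 in WT pools. Whether differences at such signals reflect transcript levels was not tested. Of 8 receptors and kinases only Jak1, at -0.21, had an unadjusted limma p under 0.05. Of 9 STAT and IRF factors only Irf7 had one, at 1.66 with overlapping groups and a limma adjusted p of 0.536. Stat2 stood at 0.16 with overlapping groups. Irf9 stood at 0.30, and its groups did not overlap, in the higher direction. Irf3 stood at -0.13, and its groups did not overlap, in the lower direction. Among 15 nucleic acid sensors and adaptors 5 had an unadjusted limma p under 0.05, all in the higher direction. They were Zbp1 at 1.13, Dhx58 at 1.06, Ifih1 at 0.98, Ddx58 at 0.58 and Traf3 at 0.57. Groups did not overlap for 7 of the 15, all higher, against 7.21% of all tested genes higher and 8.71% lower. They did not overlap for 2 higher and 2 lower of the 12 ligands. The same counts held for the 8 receptors and kinases. Of 7 feedback genes, Usp18, which removes ISG15 and dampens the receptor, stood at 1.47 (limma adjusted p = 0.200).

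Partners of IFIT function lay on both sides of 0. Of 18 genes for the eIF3 complex, which IFIT1 and IFIT2 can bind, and for cap formation, the median log2 difference was -5.7e-04, with 9 genes higher and 9 lower, and Cmtr1, the cap methyltransferase whose product marks host RNA, stood at 0.36 (limma adjusted p = 0.505), the 1 gene of the list with an unadjusted p under 0.05, and its groups did not overlap. The eIF3 subunits Eif3g at -0.16 and Eif3h at -0.14 had groups that did not overlap in the lower direction. Over all tested genes 7.21% had such groups in the higher direction and 8.71% in the lower one. An unadjusted p under 0.05 in the higher direction was met by 4.5% of them. The counts of this list, 1 higher and 2 lower of 18, are near those shares. No gene of any of these lists passed the adjusted threshold.

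**Figure D4:**
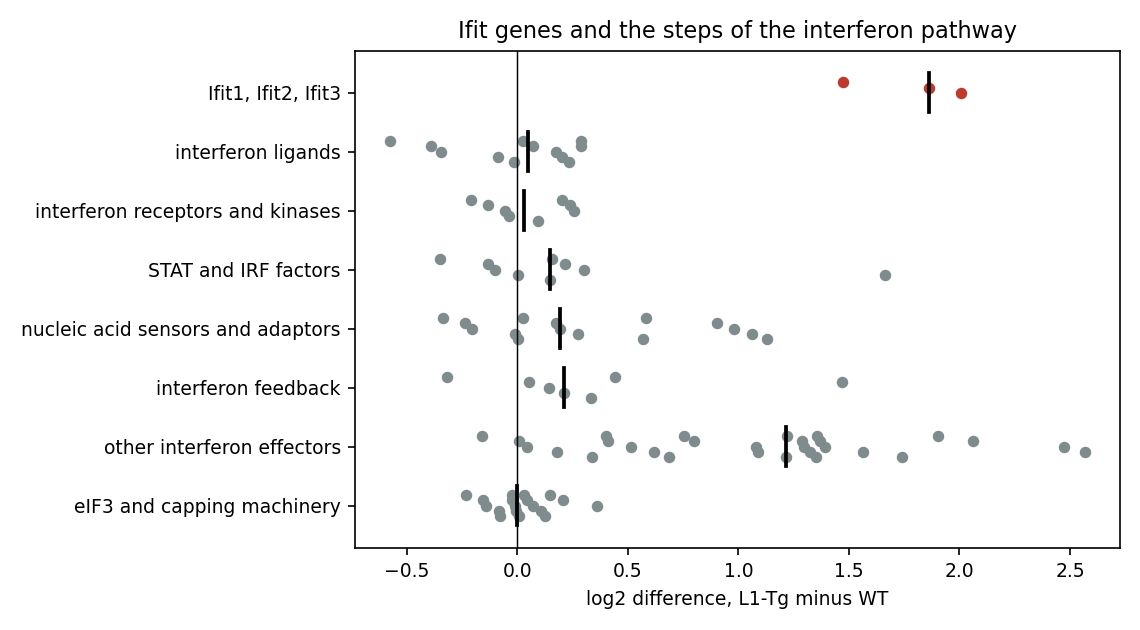
Log2 difference, L1-Tg minus WT (x axis), for each tested gene of each list (rows), with members in red, other genes in grey and a vertical bar at each list's median. The members and the other interferon effectors have medians of 1.86 and 1.22, and the ligands, receptors and kinases, and eIF3 and capping genes have medians of 0.05, 0.03 and -5.7e-04.

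In a bulk sample, fewer cells of a type and less RNA per cell cannot be told apart, and the cells that made the Ifit transcripts were not identified. Summed levels of the marker lists, relative to the array's 75th percentile, were 162 to 190 in L1-Tg and 102 to 188 in WT pools for 9 Kupffer cell markers, all 9 with a positive log2 difference and 0 with an unadjusted limma p under 0.05. They were 255 to 278 against 281 to 310 for 7 plasmacytoid dendritic cell markers, 7.35 to 9.40 against 8.28 to 9.45 for 10 lymphocyte markers and 4.36 to 8.26 against 2.43 to 5.45 for 8 neutrophil markers, of which Cxcr2 was not above background on any array. They were 98.6 to 101 against 93.7 to 102 for 7 endothelial markers and 48.7 to 65.5 against 51.8 to 66.1 for 7 stellate cell markers. For plasmacytoid dendritic cells 97.6% to 99.1% of the sum was Siglech, and 5 of the 7 markers had a positive log2 difference, with a median of 0.26. The Siglech probe averaged 8.02 in L1-Tg and 8.21 in WT pools on the log2 scale. The hepatocyte marker Hnf4a averaged 7.46 and 7.59. Whether the Siglech probe reads only these cells was not tested, so this sum is not a measure of their amount. For lymphocytes Cd3e made up 61.7% to 87.1% of the sum over the 8 markers tested and stood at -0.30, while the other 7 were positive and the median was 0.45. Of the neutrophil markers 4 were tested, all 4 with a positive log2 difference, a median of 0.71 and 0 with an unadjusted limma p under 0.05. The 4 erythroid markers tested summed to 149 to 321 in L1-Tg pools against 150 to 176 in WT pools, all 4 with a positive log2 difference and a median of 0.28. The 8 pancreas markers summed to 11.1 to 102 against 10.1 to 11.5. An unadjusted limma p under 0.05 was met in the higher direction by 2 plasmacytoid dendritic cell markers, Ly6d at 1.74 among them while Siglech stood at -0.19, and by 1 pancreas marker, Cela2a at 3.29. In the lower direction it was met by 1 hepatocyte marker, Apoa1 at -0.49, 1 lymphocyte marker and 1 stellate cell marker. Of the 10 hepatocyte markers 8 had a negative log2 difference and 2 a positive one, with a median of -0.16. The part of these markers in the Ifit differences was not tested.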

How the data were processed

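Liver RNA was measured on 6 one-color Cy3 arrays (Agilent SurePrint G3 Mouse Gene Expression). The authors scanned and used Agilent Feature Extraction (version 10.10.1.1) to process them. The deposited processed signals are background-subtracted linear intensity values, not scaled between arrays. The authors' normalized intensities, whose factor is not given in the sources used here, were an alternative. Marks of 0 or 1 per spot, of the type other, were deposited for spots above background, saturated or non-uniform, and non-uniform spots were left out.

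Log2 signals minus each array's 75th percentile were fitted with limma 3.58.1 in R 4.3.3, two-sided, with Benjamini-Hochberg adjustment over 22346 genes. A gene was its probe with the highest mean, and was tested if, in 1 group or both, every array showed that probe well above background. Of 28685 probes with a RefSeq accession, 27235 matched a symbol in the RefSeq table of GRCm38.p6. That table's coordinates were used only for that build. Promoters were RefSeq sequences, read with Python 3.11.15. WT mice were littermates of L1-Tg mice, but how litters were divided among the pools is not given in the sources used here, and p-values measure the spread between pools. The number of arrays limits the precision.

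The members, gene lists and tests were chosen with earlier results of these data known. Named were the members, their relatives, list genes with an unadjusted p under 0.05 first, the 5 nearest genes per member, 3 flanking genes on each side and Npc1l1. Some genes of the lists are not reported here. The scripts were tested on simulated data.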

Additional observations from a re-analysis of the deposited data

How the results depend on the processing

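Across 17 alternatives of scaling, background correction, filter, probe choice, test, replicate block and omission of 1 array, Ifit1, Ifit2 and Ifit3 stayed higher in L1-Tg pools and above an adjusted p of 0.05. The log2 difference ranged from 1.65 to 2.19 for Ifit1 (adjusted p 0.0767 to 0.626), from 0.87 to 1.68 for Ifit2 (0.0724 to 0.623) and from 1.44 to 2.44 for Ifit3 (0.0531 to 0.939, the lowest p and the largest difference without WT replicate 3). For the difference index and the differences between members 12 of these could be run. The index moved between 2.34 and 6.20 for Ifit1, 1.82 and 4.24 for Ifit2 and 1.18 and 3.20 for Ifit3, each highest with 1 pool left out. The number of other interferon effectors higher at an unadjusted p under 0.05, 24 of 29, ranged from 19 to 25 with 28 to 31 tested, and was 29 when every probe was tested, which counts probes and not genes. The excess of Ifit1 over Ifit3 changed sign to -0.034 with normexp and lay between -0.25 and 0.48 when 1 array was left out, that of Ifit3 over Ifit2 ranged from 0.16 to 0.92 and that of Ifit1 over Ifit2 from 0.37 to 0.89. The cause was not tested. Replicate numbers did not pair the arrays: the correlation of deviations of same-numbered arrays was -0.16, 0.11 and 0.02, and L1-Tg replicates 1 and 3 correlated best with another number. With the replicate block the adjusted p was 0.199 for Ifit1, 0.213 for Ifit2 and 0.328 for Ifit3, and 11 genes passed in place of 29. That count was 10 without the filter on dim probes, 19 with the mean of a gene's probes, 0 by a plain equal-variance test (1842 at an unadjusted p under 0.05) and 9 to 34 when 1 array was left out. Scaling to the array median moved the median log2 difference of all genes from -0.03 to 0.08. Ifit1bl1, Ch25h and Ifnb1 were too dim over background to be tested.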
